A study of Mus musculus with 4 samples.

Results

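Interleukin-22 (IL-22) signaling was followed through 7 of the 32286 features counted in single cells of the mouse distal jejunum. The genes were taken by symbol and comprise the cytokine Il22, its signaling receptor chains Il22ra1 and Il10rb, the soluble decoy receptor Il22ra2, the transcription factor Stat3 and the feedback genes Socs2 and Socs3. IL-22 is a cytokine of the IL-10 family that is made by type 3 innate lymphoid cells (ILC3) and by T cells of the Th17 kind. It acts on cells that carry IL-22RA1, which in the intestine are chiefly epithelial, through a complex with the widely expressed IL-10RB chain. The complex activates Janus kinases, STAT3 is phosphorylated, and STAT3 induces SOCS3, which in turn inhibits the kinases. IL-22RA2 (IL-22 binding protein) is a secreted receptor without a membrane anchor that captures the cytokine, and in the gut it is best known from dendritic cells and other mononuclear phagocytes. SOCS2 belongs to the same inhibitor family and is best known as a brake on growth hormone signaling.

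Cells came from 4 adult mice, 2 in each group, with 1 library per mouse. The Control mice carried Foxc1 fl/fl;Foxc2 fl/fl alleles without Cre, and the EC-Foxc-DKO mice carried the same floxed alleles plus Cdh5-CreERT2, a tamoxifen-dependent Cre driven by the Cdh5 promoter in blood and lymphatic endothelial cells. All 4 mice underwent ischemia and reperfusion (I/R) of the small intestine and were sampled 18.5 h later, so no uninjured tissue was compared. The genotype question was therefore how these genes stand, in the injured jejunum, when endothelial Foxc1 and Foxc2 are deleted.

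The 4 libraries held 22679 barcodes, of which 5615 (24.8%) had at most 10% mitochondrial UMIs and were kept. The unique molecular identifier (UMI) marks 1 captured RNA molecule. Kept cells numbered 1446 and 348 in Control 1 and Control 2, and 2742 and 1079 in EC-Foxc-DKO 1 and EC-Foxc-DKO 2. Their median depth ranged from 4254.5 to 19871 UMIs per cell, and Control 2 stood apart with a median of 54.0% mitochondrial UMIs per barcode against 15 to 25.8% in the other mice. The libraries shared 51 cell barcodes. Foxc1 gave 2 and 9 UMIs in Control endothelial cells and 1 and 0 in EC-Foxc-DKO endothelial cells, Foxc2 gave 0 in all 4 mice, and Cre was counted in the EC-Foxc-DKO mice alone, with 3 UMIs in each. Whether the counted 3′ ends lie within the deleted parts is not given in the sources used here. Cell types were rebuilt by clustering without the 7 genes, and each name below stands for a cluster that is like that type by its markers. Of the markers fixed for each compartment, all were highest in their own compartment for B lineage, macrophages and monocytes, neutrophils, endothelial, mesenchymal and glial cells. This held for 6 of 8 epithelial, 6 of 8 T cell and 3 of 6 dendritic markers, and Xcr1, which marks conventional type 1 dendritic cells, was at 0 in the dendritic compartment. The dendritic compartment held 58 cells and the neutrophil compartment 56, so their levels rest on few UMIs.

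The members lie on 4 chromosomes (mm10, GENCODE vM21 annotation). Il22 is at chr10:118204942-118210047 on the plus strand, Il22ra2 at chr10:19621998-19634681 on the plus strand and Socs2 at chr10:95385362-95417180 on the minus strand. Il22ra1 is at chr4:135728172-135752140 on the plus strand and Il10rb at chr16:91406164-91425834 on the plus strand. Stat3 is at chr11:100885098-100939540 and Socs3 at chr11:117966079-117970047, both on the minus strand. STAT dimers bind palindromes of the form TTCNNNGAA, and this motif was searched for in the promoters of members in RefSeq (GRCm38.p6), from 250 bases before to 50 after the start of the gene. The table held promoters of Il22, Il22ra1, Stat3 and Socs3. The Socs3 promoter had 1 match, 154 to 146 bases before the RefSeq start, and the other promoters had 0. The RefSeq and GENCODE starts of Socs3 differ. The searched Socs3 promoter (chr11:117969317-117969616) lies inside the GENCODE span given above, so by GENCODE the match is downstream of the start. The pattern TTCNNNGAA, though not each match, reads the same on both strands, and 8.3% of all 32851 promoters in the table held it. A version with a spacer longer by 1 base was found in 6.95% of promoters and in 0 of these 4. The match is shown with 10 bases on either side because Socs3 is the member known as a direct STAT3 target (chr11:117969502-117969530, minus strand, 5′ to 3′, motif in capitals). A match describes the letters in this window and does not show binding.
Socs3 promoter window: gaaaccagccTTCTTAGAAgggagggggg

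Il22, the ligand, was counted in very few cells. Kept cells held 62 Il22 UMIs in 7 cells, with 1 UMI in Control 1, 7 in Control 2, 54 in EC-Foxc-DKO 1 and 0 in EC-Foxc-DKO 2. A single EC-Foxc-DKO 1 cell held 41 of them, and the 3 highest cells held 93.5%. The mouse totals thus followed single cells, and the groups overlapped. In the T and innate lymphoid compartment the Il22 level was 0, 15.5, 26.9 and 0 UMIs of the gene per 1000000 UMIs of the cells (CPM) in Control 1, Control 2, EC-Foxc-DKO 1 and EC-Foxc-DKO 2, a mean of 10.6 ± 13.1 (SD, n = 4), and the mean was 4.19 without the highest cell. The type 3 lymphocyte-like subcluster, which was led by Tmem176b, Tmem176a, Il10 and Il17a and had 8 of 10 ILC3 or Th17 markers, contained 50 of the 62 UMIs (80.6%) in 5 of its 31 cells (16.1%, 95% exact binomial interval 5.45 to 33.7%, counting error only). This subcluster held 2, 7, 18 and 4 cells of the 4 mice. The CD8+ T cells had 0 Il22 UMIs.

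The Il22-positive cells differed in what else they expressed. The 41-UMI cell had 7 UMIs of the chemokine receptor Cxcr6, 11 of the IL-7 receptor Il7r, 23 of lymphotoxin beta (Ltb) and 0 of the T cell receptor component Cd3e. The 6-UMI cell of Control 2 had 8 UMIs of Cd3e and 2 of the IL-23 receptor Il23r. One EC-Foxc-DKO 1 cell with 1 Il22 UMI had 24 UMIs of Il17a. The 11-UMI cell of EC-Foxc-DKO 1 clustered with plasma and dividing B cells, had 37960 UMIs in all and 9 of Cd3e. The only Control 1 cell, with 1 UMI, was an epithelial cell with 202 UMIs of the epithelial marker Epcam. Across the 7 cells, Ltb and the IL-1 receptor Il1r1 were each detected in 5, Cxcr6 in 4, Il23r, Cd3e and Il7r in 3 and Ncr1 in 1.

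The mitochondrial limit removed nearly as much Il22 as it kept. Barcodes above the limit held 52 UMIs in 13 barcodes, with 33, 5, 4 and 10 UMIs in Control 1, Control 2, EC-Foxc-DKO 1 and EC-Foxc-DKO 2, and 1 Control 1 barcode at 15.6% mitochondrial UMIs held 30 of them. Over all barcodes the 4 mice had 34, 12, 58 and 10 Il22 UMIs in 5, 5, 7 and 3 barcodes, so every mouse had some. The counts are uncertain in a further way, because the near-identical copy Iltifb (chr10:118289629-118295038, minus strand) lies 79581 bases away. The reference transcripts of the pair matched at 1081 of 1110 aligned bases (97.4%), and a read that fits both is not assigned to a gene by the counting tool's usual rule. Iltifb itself gave 0, 1, 14 and 0 UMIs in kept cells, and 3 of the 7 Il22-positive cells also held Iltifb.

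**Figure D1:**
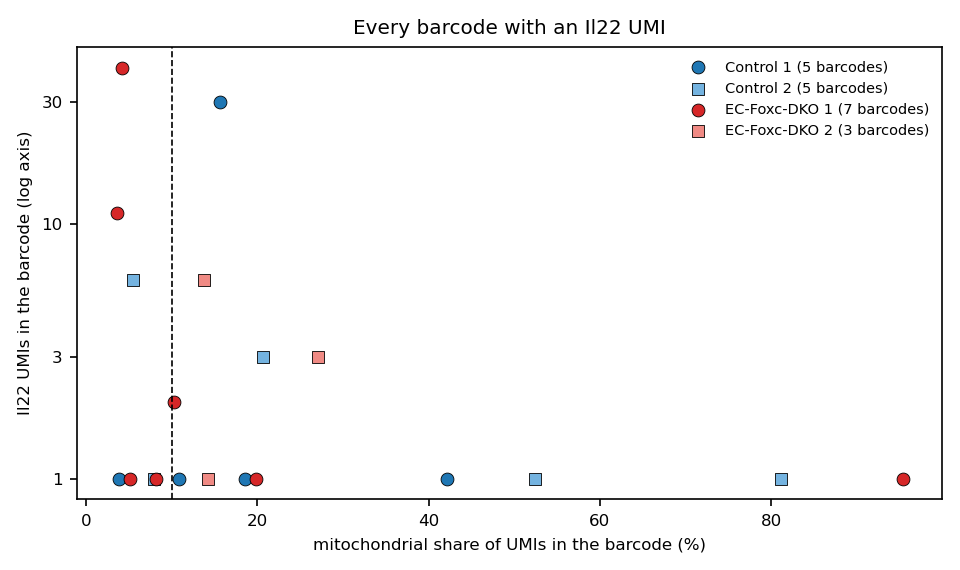
Each point is a barcode with at least 1 Il22 UMI, with its Il22 UMIs (log axis) against its mitochondrial share of UMIs in percent, colored by mouse, and the dashed line is the 10% limit on kept cells. The 7 kept cells lie left of the line and reach 41 UMIs, and 13 barcodes lie right of it and reach 30.

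Il22ra1, the receptor chain that decides which cells respond to IL-22, was an epithelial transcript. Epithelial cells held 262 of its 266 kept UMIs (98.5%), and 238 of 2375 epithelial cells (10.0%, 95% exact interval 8.84 to 11.3%, median depth 25781 UMIs) had at least 1. The remaining UMIs were 2 in erythroid cells, 1 in mesenchymal cells and 1 in a neutrophil. The 2 erythroid UMIs and the neutrophil UMI were from Control 1, where the summed level of 8 epithelial markers was 13400 CPM in erythroid and 7650 in neutrophil cells, against 21200 in epithelial cells, so these UMIs cannot be assigned to erythroid cells or neutrophils. In all 4 mice the erythroid cluster held these markers at 8920 to 14900 CPM, and at resolution 1.0 the erythroid cluster had 42 cells in place of 192. None of 545 T and innate lymphoid cells had an Il22ra1 UMI (median depth 4600 UMIs), so that at most 0.55% of such cells would hold one at this depth. The pooled epithelial level of 3.79 CPM was at least 3.42-fold the level that 3 counts over this group would give. The same bound was 8.92-fold against B lineage cells, 3.98-fold against macrophages and monocytes and 1.34-fold against endothelial cells, all with 0 UMIs. The neutrophil and erythroid means, at 4.03 ± 5.70 (SD, n = 2) and 2.06 ± 4.13 CPM (SD, n = 4), rested on 1 and 2 UMIs, so they could not be ranked against the epithelial mean of 3.06 ± 2.07 CPM (SD, n = 4). The dendritic and glial compartments were too small for a bound.

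Within the epithelium Il22ra1 was higher in each step from the bottom of the villus to its top. Top enterocytes had 17.6 CPM in Control 1 (56 UMIs) and 16.9 in EC-Foxc-DKO 1 (26 UMIs), the 2 mice with at least 10 such cells. Middle enterocytes had 5.56, 2.78 and 5.72 CPM in Control 1, Control 2 and EC-Foxc-DKO 1. Bottom enterocytes had 1.93, 0, 1.04 and 0.897 CPM in Control 1, Control 2, EC-Foxc-DKO 1 and EC-Foxc-DKO 2, and crypt cells, the compartment of stem and dividing cells, had 2.88, 0, 1.11 and 1.13. The top to bottom ratio was 9.13 in Control 1 (95% exact interval 5.34 to 16.3) and 16.3 in EC-Foxc-DKO 1 (6.57 to 48.5), and the middle to bottom ratio was 2.89 (1.67 to 5.19) and 5.53 (2.26 to 16.2). The steps thus had the same order in both mice and were larger than counting error, while crypt and bottom cells overlapped between mice. Top enterocytes were shallower than bottom enterocytes, with medians of 12583.5 and 31353 UMIs per cell, yet 21.6% of top and 4.28% of bottom cells had an Il22ra1 UMI. With each cell thinned to 1000 UMIs the shares were 2.05% and 0.183% in Control 1 and 1.66% and 0.0897% in EC-Foxc-DKO 1. Among the other epithelial types, Sprr2a3-high epithelial cells had 4.59, 7.41 and 4.08 CPM in Control 1, EC-Foxc-DKO 1 and EC-Foxc-DKO 2, goblet and Paneth cells had 8.82, 5.31 and 0, and the 66 tuft cells had 0 UMIs.

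The epithelial level of Il22ra1 also moved with which epithelial cells each library held. It was 5.32, 0.992, 4.29 and 1.64 CPM (148, 2, 77 and 35 UMIs) in Control 1, Control 2, EC-Foxc-DKO 1 and EC-Foxc-DKO 2. Middle and top enterocytes together were 58.0, 22.8, 48.6 and 1.32% of the epithelial cells of these mice, and crypt and bottom cells were 26.7, 59.5, 30.4 and 64.8%. The 2 mice with most villus cells were the 2 with the highest level, 1 of each genotype. The part of this makeup in the genotype values below was not tested beyond a fit of bottom enterocytes alone.

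Il10rb, the chain that IL-22 shares with IL-10 and other family members, was found in every compartment. The mean level was 205 ± 40.8 CPM in neutrophils (SD, n = 2), 122 ± 28.9 in macrophages and monocytes (n = 4), 75.7 ± 12.6 in epithelial cells (n = 4), 39.0 ± 17.6 in endothelial cells (n = 4) and 31.4 ± 8.37 in T and innate lymphoid cells (n = 4). Neutrophils and macrophages did not overlap, with 234 and 176 CPM against 84.7 to 155. The compartments below epithelium ran into each other. Between T cells, B cells, endothelial, erythroid, mesenchymal and glial cells no neighbors in the order could be separated beyond their spread. In the epithelium Il10rb was lower in crypt cells, at 47.3, 17.5, 27.7 and 37.1 CPM, than in bottom enterocytes, at 80.6, 95.2, 75.9 and 65.3 CPM, so that crypt cells were below bottom enterocytes in 4 of 4 mice and the ranges did not overlap. Middle enterocytes had 90.9, 167 and 99.1 CPM in Control 1, Control 2 and EC-Foxc-DKO 1. Of the 238 epithelial cells with Il22ra1, 201 (84.5%) also had Il10rb, against 77.3% of those without, at median depths of 28007.5 and 25695 UMIs.

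**Figure D2:**
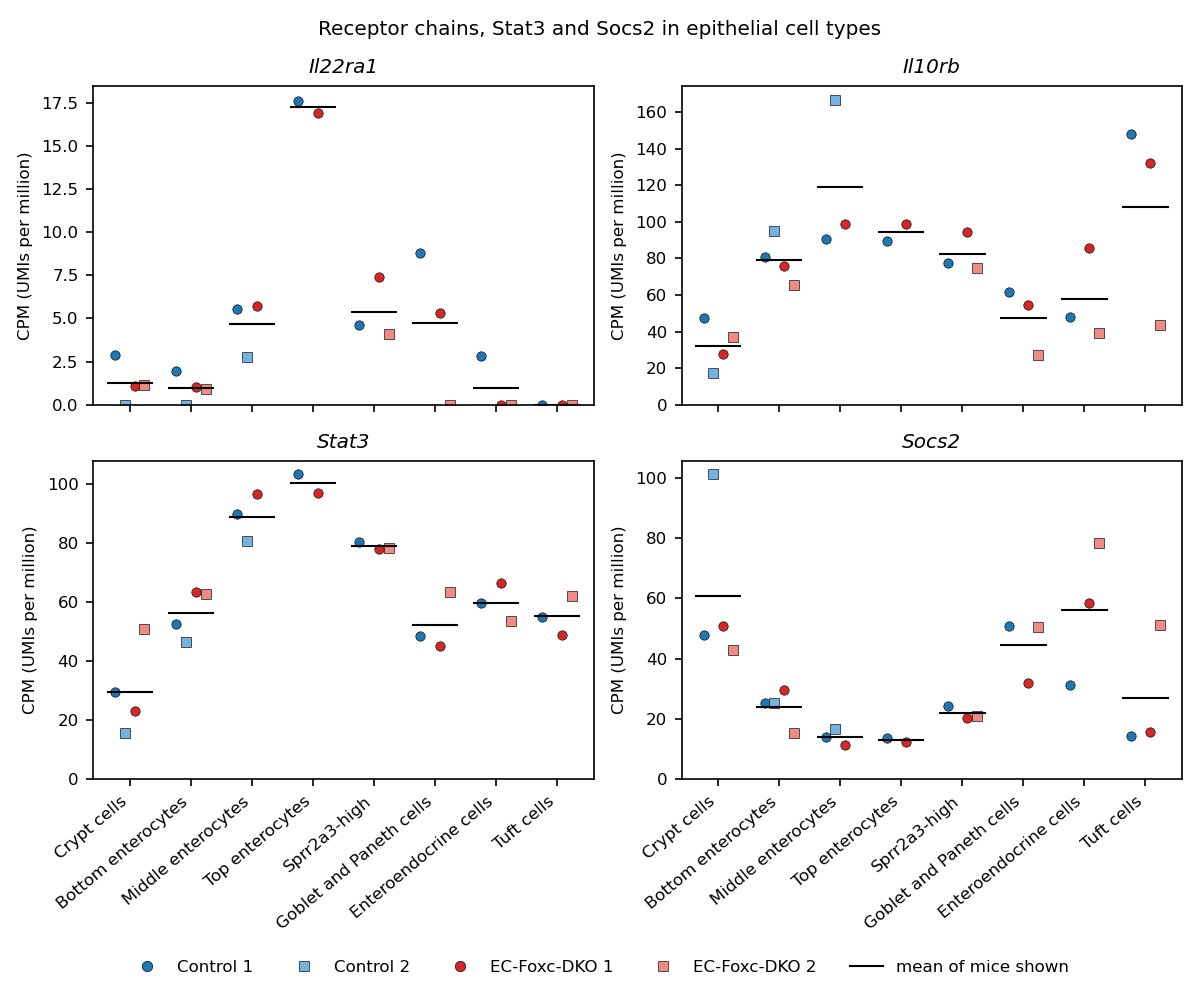
Level in CPM of Il22ra1, Il10rb, Stat3 and Socs2 in 8 epithelial types, with 1 point per mouse that had at least 10 cells of the type and a line at the mean. Il22ra1 is highest in top enterocytes, near 17 CPM in both mice, Il10rb and Stat3 are lowest in crypt cells, and Socs2 in crypt cells, at 42.9 to 101 CPM, overlaps enteroendocrine and goblet and Paneth cells and lies above bottom enterocytes.

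Il22ra2, the secreted decoy, was counted mostly in mononuclear phagocytes, and in few of them. Kept cells held 172 Il22ra2 UMIs in 33 cells, of which 159 (92.4%) lay in 24 of the 448 cells taken into a second round of myeloid clustering (5.36%, median depth 7572 UMIs, against 0.126% of epithelial cells). The myeloid level was 23.7, 8.07, 14.2 and 157 CPM in Control 1, Control 2, EC-Foxc-DKO 1 and EC-Foxc-DKO 2, a mean of 50.7 ± 71.1 (SD, n = 4). EC-Foxc-DKO 2 was far above the other mice because 3 of its cells held 65, 22 and 14 UMIs, 58.7% of all kept Il22ra2 UMIs. The mean was 14.9 CPM without these cells and 15.3 without that library. Outside the myeloid cells there were 6 UMIs in B lineage cells, 3 in epithelial cells, 2 in neutrophils and 1 each in T and mesenchymal cells, and 0 in endothelial cells and glia.

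The largest share of the decoy transcript lay in an unnamed myeloid subcluster, but its level there overlapped that in the mature dendritic-like cells, which rested on few cells. This subcluster of 76 cells was led by Lyz1, Cst7 and Pla2g2d, had 4 of 10 markers of resident macrophages and was left unnamed. Its cells were shallow, with a median of 973.5 UMIs. None of those markers was among its leading genes, whereas Pla2g2d and Dnase1l3 of the fixed list for conventional dendritic cells were. The subcluster held 109 Il22ra2 UMIs (63.4%), 18, 2, 18 and 71 in the 4 mice. They lay in 17 cells (22.4%, 95% exact interval 13.6 to 33.4%), which were 7, 1, 7 and 2 per mouse, and 1 cell of EC-Foxc-DKO 2 held 65 of them. The complement gene C1qa, a macrophage marker, was detected in 69 of the 76 cells (90.8%), and the dendritic cell genes Flt3, Zbtb46, Xcr1 and Clec9a were at 0 in all of them. Of the same fixed dendritic list, Cd209a and Ccr7 were also at 0. Dnase1l3 was found in 26.3% of these cells, Pla2g2d in 22.4%, Apol7c in 7.89%, Batf3 in 3.95% and Fscn1 in 2.63%. The study's markers of a macrophage cluster in these data include Il22ra2, C1qa, Dnase1l3, Pla2g2d, Apol7c and Batf3. Mature or migratory dendritic-like cells held 13 UMIs in 4 of 35 cells (11.4%) and were as shallow, with a median of 1013 UMIs. This subcluster had 4 of 9 markers of such cells, with Ccr7 in 11.4% and Fscn1 in 17.1% of its cells. None of its Il22ra2-positive cells had a Ccr7 or Fscn1 UMI. In the 2 mice with at least 10 cells of each, Control 1 and EC-Foxc-DKO 1, the level was 540 and 216 CPM in the unnamed subcluster and 588 and 168 CPM in the mature dendritic-like cells, which overlapped. The dendritic-like levels rested on a Control 1 cell with 6 UMIs and on EC-Foxc-DKO 1 cells with 2 UMIs each. The 23 plasmacytoid dendritic-like cells (median depth 8404 UMIs) held 0, with an exact 95% upper limit of 14.8% on the share of such cells with a UMI. The remaining high cells were 2 monocyte-like cells of EC-Foxc-DKO 2 with 22 and 14 UMIs.

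Myeloid genes were frequent in the 33 cells. Lyz2, the lysozyme of myeloid cells, was found in 30, the antigen presentation gene H2-Ab1 in 25, C1qa in 23 and the CSF-1 receptor Csf1r in 13. Pla2g2d and Dnase1l3 were each found in 10 and Batf3 in 9, whereas Flt3 and Ccr7 were found in 2, Zbtb46 in 1, and Xcr1, Clec9a, Cd209a and Siglech in 0. The highest cell, with 65 UMIs, had 71 UMIs of C1qa and 282 of Lyz2. Barcodes above the mitochondrial limit added 69 UMIs in 22 barcodes, so that all barcodes gave 30, 24, 38 and 149 UMIs in Control 1, Control 2, EC-Foxc-DKO 1 and EC-Foxc-DKO 2.

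**Figure D3:**
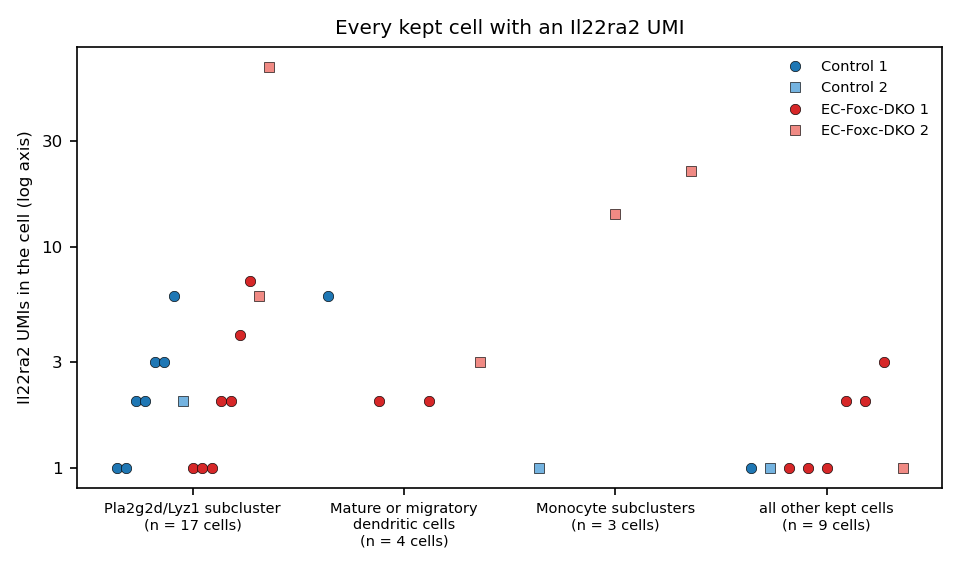
Each point is a kept cell with at least 1 Il22ra2 UMI, with its UMIs on a log axis, set out by cell group and colored by mouse. The unnamed Pla2g2d and Lyz1 subcluster holds 17 of the 33 cells, and the 3 highest cells, with 65, 22 and 14 UMIs, are all from EC-Foxc-DKO 2.

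Stat3, the transcription factor downstream of the receptor, was found throughout and was lower in epithelium than in most other compartments. Its level was 71.8, 45.1, 69.5 and 62.6 CPM in epithelial cells of Control 1, Control 2, EC-Foxc-DKO 1 and EC-Foxc-DKO 2, a mean of 62.3 ± 12.1 (SD, n = 4). Endothelial cells had 188, 195, 205 and 238 CPM, T and innate lymphoid cells had 171, 117, 146 and 184, and macrophages and monocytes had 126, 105, 124 and 128. All 3 were above every epithelial value. Neutrophils were highest at 282 and 274 CPM in the 2 mice with at least 10 of them. Glia reached a similar mean to endothelial cells, 182 ± 64.7 against 206 ± 22.2, and these could not be separated. Within the epithelium Stat3 was higher in each step from crypt cells through bottom to middle enterocytes. Crypt cells had 29.4, 15.6, 23.3 and 50.7 CPM, bottom enterocytes had 52.6, 46.5, 63.3 and 62.7, and middle enterocytes had 89.7, 80.7 and 96.5 in Control 1, Control 2 and EC-Foxc-DKO 1. The crypt to bottom ratio was below 1 in 4 of 4 mice, at 0.559, 0.335, 0.368 and 0.809, and each of the 4 exact intervals lay below 1. The middle to bottom ratio was 1.70, 1.73 and 1.52 in the 3 mice, with exact intervals above 1 in all 3. The top to bottom ratio was 1.96 in Control 1 (exact interval 1.71 to 2.26) and 1.53 in EC-Foxc-DKO 1 (1.26 to 1.86). In EC-Foxc-DKO 1 top and middle enterocytes were thus alike.

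Socs2, a feedback inhibitor, had its highest level in endothelial cells. Within the epithelium it was higher in crypt, enteroendocrine and goblet and Paneth cells than in enterocytes. Endothelial cells had 152, 125, 197 and 127 CPM in Control 1, Control 2, EC-Foxc-DKO 1 and EC-Foxc-DKO 2 (151 ± 33.2, SD, n = 4), with 166 of the 172 UMIs in blood endothelial cells. No other compartment reached these levels in any mouse. Epithelial cells had 22.0, 45.1, 25.5 and 27.3 CPM, T and innate lymphoid cells 5.81, 19.9, 14.4 and 3.23, and neutrophils 0. Crypt cells had 47.9, 101, 51.0 and 42.9 CPM, enteroendocrine cells 31.2, 58.6 and 78.4 and goblet and Paneth cells 50.7, 31.8 and 50.6 in Control 1, EC-Foxc-DKO 1 and EC-Foxc-DKO 2, and bottom enterocytes 25.3, 25.5, 29.5 and 15.4. Crypt, enteroendocrine and goblet and Paneth cells overlapped and could not be ordered. Tuft cells, at 14.3 to 51.2 CPM (n = 3), overlapped bottom enterocytes. Ratios with intervals were computed for crypt cells and enterocytes and not for the secretory types. The crypt to bottom ratio was 1.89 (95% exact interval 1.45 to 2.43), 3.97 (2.39 to 6.8), 1.73 (1.37 to 2.18) and 2.80 (2.27 to 3.46), and middle enterocytes were below bottom enterocytes in all 3 mice, at 14.0, 16.7 and 11.3 CPM. Socs2 and Stat3 thus had opposite orders from crypt cells through bottom to middle enterocytes.

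Socs3, the STAT3-induced inhibitor, differed widely between mice in several compartments. Glia had the highest mean, 421, 782, 780 and 1027 CPM in Control 1, Control 2, EC-Foxc-DKO 1 and EC-Foxc-DKO 2 (752 ± 250, SD, n = 4). Macrophages and monocytes had 259, 1220, 307 and 141 CPM (482 ± 497), with Control 2 far above the other mice. Neutrophils had 347 and 626 CPM and endothelial cells 58.6, 216, 244 and 586 (276 ± 222). These 4 compartments overlapped and could not be ordered. Epithelial cells were low and even, at 19.6, 17.9, 24.2 and 15.2 CPM (19.2 ± 3.8), and T and innate lymphoid cells had 29.1, 8.85, 45.7 and 61.3. Follicular B cells had 69.2, 15.8, 136 and 88.5 CPM. Control 2, the library with the highest mitochondrial share, was lowest of the 4 in T and B cells and highest in macrophages.

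**Figure D4:**
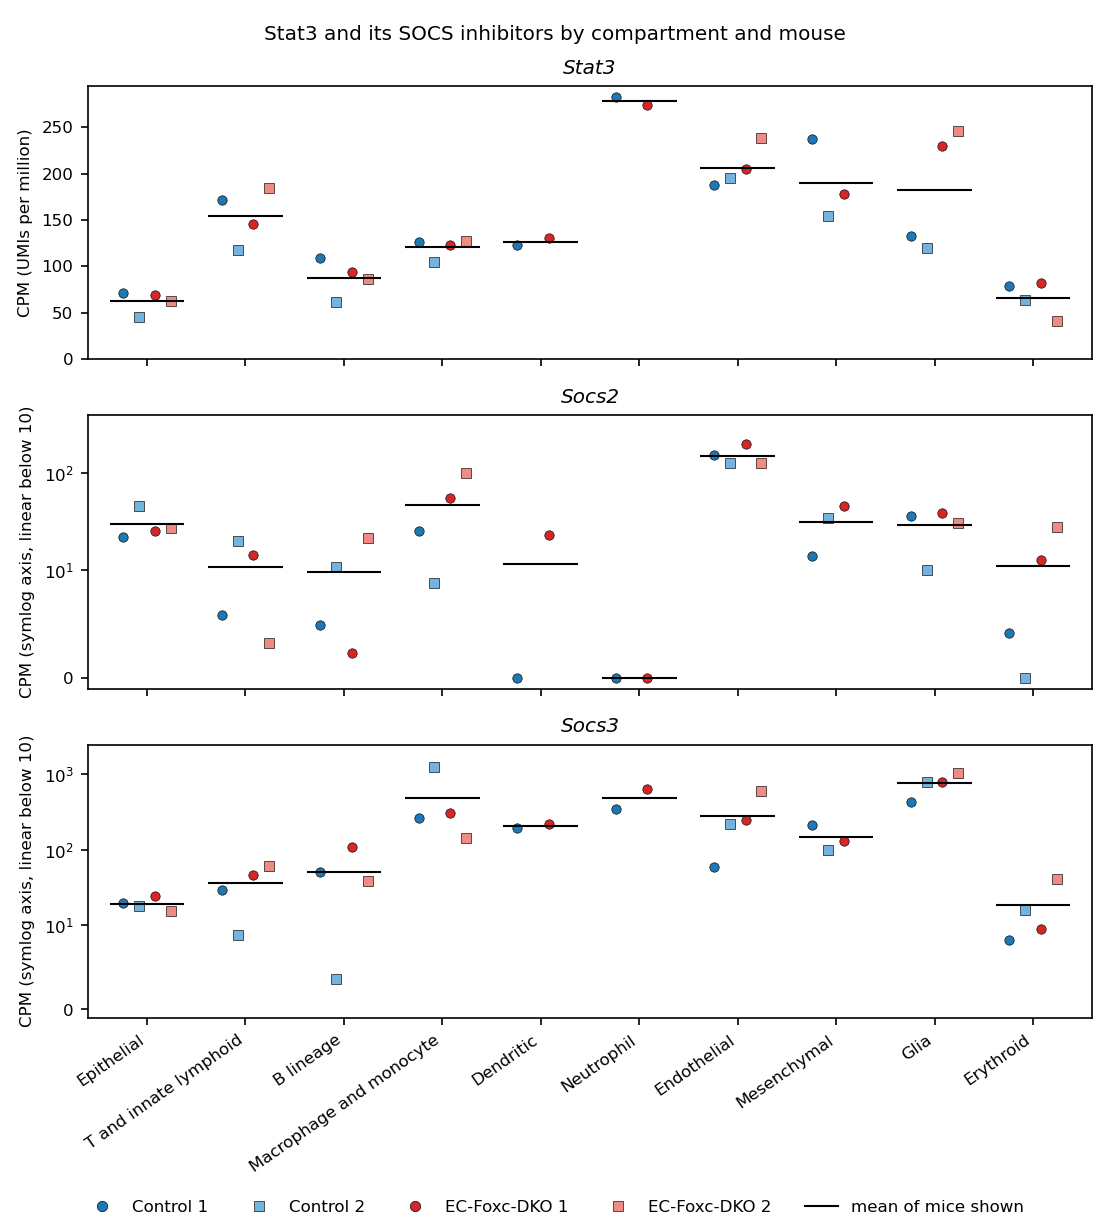
Level in CPM of Stat3 (linear axis) and of Socs2 and Socs3 (log axes, linear below 10 CPM) in each compartment, with 1 point per mouse that had at least 10 cells and a line at the mean. Socs2 is highest in endothelial cells at 125 to 197 CPM in every mouse, whereas Socs3 spans 141 to 1220 CPM in macrophages and monocytes.

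Compartments were tested with the mouse as a block by edgeR's quasi-likelihood test with Benjamini-Hochberg adjustment over 9695 genes, with differences on the log2 scale. Il22 and Il22ra1 did not pass the filter on low expression, so 5 of the 7 members were tested. The filter weighs counts against depth, and the 266 kept UMIs of Il22ra1 lay almost all in deep epithelial sums. Il22ra2 passed with 172 kept UMIs, and its highest levels were in dendritic cells and in macrophages and monocytes. It thus entered the test through groups in which it was high, and its values there are a description. Between epithelial and T and innate lymphoid cells, 3 of the 5 passed, against 61.0% of all genes (33.5% higher in epithelium and 27.6% lower). Il10rb was higher in epithelium by 1.78 (SE 0.25, adjusted p = 1.05e-07) and Socs2 by 1.69 (SE 0.48, adjusted p = 0.00256), and Stat3 was lower at -0.83 (SE 0.20, adjusted p = 0.000581). Socs3 was at -0.35 (SE 0.56, adjusted p = 0.616) and Il22ra2 at -2.39 (SE 2.16, adjusted p = 0.356). A share of 3 in 5 was near the background of a comparison in which most genes differed.

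Between epithelial cells and macrophages and monocytes, 3 of 5 members passed, against 57.8% of all genes (30.6% higher and 27.1% lower), and all 3 were lower in epithelium by edgeR's quasi-likelihood test with Benjamini-Hochberg adjustment. The 3 include Il22ra2, which passed the filter through groups in which it was high, so its direction is a description and no support. Socs3 was at -4.13 (SE 0.55, adjusted p = 3.37e-08). Il22ra2, as a description, was at -7.40 (SE 1.17). Without EC-Foxc-DKO 2, whose cells held most of the decoy transcript, Il22ra2 was at -1.67. The tested compartment held 108 of the 172 kept Il22ra2 UMIs and not the same cells in each mouse. Il22ra2-positive cells of the unnamed Lyz1-led subcluster were inside it in EC-Foxc-DKO 2. In Control 1, Control 2 and EC-Foxc-DKO 1 they were outside it. The Il22ra2 values therefore depend on this uneven labeling. Stat3 was at -0.56 (SE 0.20, adjusted p = 0.0163) and no longer passed without Control 2, EC-Foxc-DKO 1 or EC-Foxc-DKO 2, with adjusted p-values of 0.0878, 0.0872 and 0.0971. Il10rb was at -0.29 (SE 0.21, adjusted p = 0.238) and Socs2 at -0.29 (adjusted p = 0.540). DESeq2 called 4 of the 5 members in this comparison, with Il10rb added, so the Il10rb result depended on the tool. Between endothelial and epithelial cells, 4 of 5 passed, against 58.9% of all genes (29.9% higher in endothelial cells and 29.0% lower). Endothelial cells were higher in Socs3 by 2.98 (SE 0.54, adjusted p = 1.19e-05), in Socs2 by 1.76 (SE 0.38, adjusted p = 0.000139) and in Stat3 by 1.07 (SE 0.21, adjusted p = 3.55e-05), and lower in Il10rb at -1.62 (SE 0.27, adjusted p = 3.68e-06). Il22ra2 was at -0.33 (adjusted p = 0.896). With no filter on low counts, Il22ra1 could be fitted by the same edgeR test and was higher in epithelium than in T and innate lymphoid cells (adjusted p = 0.000234), macrophages and monocytes (adjusted p = 8.39e-05) and endothelial cells (adjusted p = 0.01), for which the bounds given above hold since those groups were at 0.

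Other genes of the pathway were compared from fixed lists, whose members took part in the clustering, so their counts describe the compartments. Some of them, such as Reg3b, Reg3g, Sprr2a3, Il1b and Il7r, were also markers used to name or check cell types. Their directions are therefore not independent of the naming. Over all genes, 33.5% were higher and 27.6% lower in epithelium than in T and innate lymphoid cells. Of the genes that induce IL-22 or define the cells that make it, 7 of 10 tested were lower and 1 higher in epithelium than in T and innate lymphoid cells, with a median of -5.17 against 0.16 over all genes. The lowest adjusted p-values fell on the IL-7 receptor Il7r (-8.50), the nuclear receptor Rora (-7.45), Batf (-7.76), Ltb (-6.23) and the aryl hydrocarbon receptor Ahr (-2.31). Janus kinases and other STATs were lower in epithelium for 6 of 9 and higher for 0, led by Stat4 (-9.34), Jak3 (-4.54) and Jak1 (-1.62). The other SOCS genes and STAT3 brakes were lower for 6 of 10 and higher for 1, with Cish at -4.22 and Socs1 at -3.37. Both tested genes of the IL-10 family, Il10ra (-5.42) and Il10 (-6.64), were lower. Of the other receptors and ligands that use STAT3, 5 of 11 were lower, such as the gp130 chain Il6st (-2.31) and Il6ra (-3.17), and 2 were higher, the growth hormone receptor Ghr (7.50) and the prolactin receptor Prlr (6.29). Epithelial target genes of IL-22 and STAT3 were higher for 16 of 22 and lower for 3 (median 3.60), including the antimicrobial lectins Reg3b (7.82) and Reg3a (6.72), Il18 (7.32), Sprr2a3 (7.46) and the mucin Muc13 (5.35).

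The same lists set the other compartments apart in other ways. Over all genes, 30.6% were higher and 27.1% lower in epithelium than in macrophages and monocytes. In endothelial cells, 29.9% were higher and 29.0% lower than in epithelium. Against macrophages and monocytes, epithelium was lower in the IL-1 gene Il1b (-9.72), with 7 of 10 inducing genes lower and 1 higher. It was lower in Il10ra (-8.96), in oncostatin M (Osm, -10.41) and in Il6ra (-5.39), and the epithelial targets were divided, with 9 of 22 higher, among them Reg3g (8.22), and 10 lower. Against epithelium, endothelial cells were higher in 8 of 11 other STAT3 receptors and ligands and lower in 1. These included the leptin receptor Lepr (10.51), the oncostatin M receptor Osmr (10.27), Lifr (9.92) and Il6st (4.96), whereas Prlr was lower (-11.41). The IL-1 receptor Il1r1 was higher in endothelial cells by 8.51, Jak3 by 4.26 and Socs5 by 4.79.

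Genotype was tested within each compartment by edgeR's quasi-likelihood test with Benjamini-Hochberg adjustment, 2 EC-Foxc-DKO against 2 Control mice, where every mouse had at least 10 cells. This gave 22 tests of members in 7 compartments, and no member and no gene passed in any of them (0.0% of genes called). At an unadjusted p under 0.05 there were 91 of 5193 genes in B lineage cells, 195 of 4109 in endothelial cells, 172 of 12333 in epithelial cells, 57 of 1954 in erythroid cells, 38 of 1644 in glia, 147 of 6953 in macrophages and monocytes and 178 of 5230 in T and innate lymphoid cells. DESeq2 called 3, 2, 7, 1, 0, 0 and 1 genes in these compartments, and none was a member. For a single value, an exact permutation test of 2 against 2 mice cannot go below p = 0.333. In simulated counts of the same size, the fit recovered 96.9 to 100% of 16-fold changes but 33.3% (epithelial cells) to 93.8% (T and innate lymphoid cells) of 4-fold changes, so moderate changes in epithelium were often not detectable here. Only genes with higher expected counts were changed, and all genes of a compartment were drawn with the same spread. These shares therefore do not cover members with few UMIs or with a wide spread between mice.

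The receptor and its signaling genes did not differ detectably by genotype in the epithelium. By edgeR's quasi-likelihood test with Benjamini-Hochberg adjustment, the log2 difference, EC-Foxc-DKO minus Control, was -0.34 (SE 0.83) for Il22ra1, -0.26 (SE 0.33) for Il10rb, 0.16 (SE 0.38) for Stat3, -0.26 (SE 0.36) for Socs2 and 0.075 (SE 0.37) for Socs3, each with an adjusted p of 1. Il10rb was the only one of the 5 whose groups did not overlap, with Control means of 83.1 CPM against 68.3, and 22.3% of all epithelial genes had groups that did not overlap (10.2% higher and 12.1% lower). The epithelial target list of IL-22 and STAT3 had 0 of 27 tested genes called and a median of 0.62, against -0.0035 over all genes. Reg3b, Reg3g and Sprr2a3 of this list are markers of epithelial types whose numbers differed between mice. Sprr2a3-high cells, for example, numbered 62 and 2 in Control and 31 and 179 in EC-Foxc-DKO mice. The part of this makeup in the median was not tested.

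Socs3 and Socs2 had the largest genotype differences, in cells other than epithelium, and none passed after adjustment. In T and innate lymphoid cells the Control mice had Socs3 levels of 29.1 and 8.85 CPM, against 45.7 and 61.3 for EC-Foxc-DKO, a difference of 1.54 (SE 0.47, adjusted p = 0.999, edgeR's quasi-likelihood test with Benjamini-Hochberg adjustment). In endothelial cells it was 58.6 and 216 against 244 and 586 CPM, a difference of 1.46 (SE 0.58, adjusted p = 0.985, same edgeR test). In macrophages and monocytes it was 259 and 1220 against 307 and 141 CPM, with the groups overlapping and a difference of -1.75 (SE 0.69, adjusted p = 1.00, edgeR), which was -0.22 without Control 2. Socs2 in macrophages and monocytes was 25.5 and 8.76 against 55.2 and 99.6 CPM, a difference of 1.96 (SE 0.51, adjusted p = 1.00, edgeR), and 1.5 to 3.09 when a mouse was left out. Stat3 in glia was 132 and 120 against 230 and 245 CPM, a difference of 0.87 (SE 0.40, adjusted p = 1.00, edgeR). In B lineage cells Socs3 had means of 27.1 CPM in Control and 73.3 in EC-Foxc-DKO mice, with the groups overlapping. Its difference there was 1.17 (SE 0.75), and it ranged from 0.12 to 3.86 when a mouse was left out. Groups that did not overlap were found for 3 of 4 members tested in endothelial cells, Stat3 and Socs3 higher and Il10rb lower, as for 33.3% of all genes (17.7% higher and 15.6% lower). They were found for 1 of 4 in macrophages and monocytes, Socs2, against 30.8% of genes (17.2% higher and 13.6% lower), for 1 of 3 in T and innate lymphoid cells, Socs3, against 31.8% (13.1% higher and 18.7% lower), and for 1 of 2 in glia, Stat3, against 26.4% (14.1% higher and 12.3% lower). They were found for 0 of 3 in B lineage cells, against 31.0% (26.5% higher and 4.53% lower), and for 0 of 1 in erythroid cells, against 36% (18.4% higher and 17.6% lower). These counts rest on 1 to 5 genes in a compartment and are a description.

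The endothelial value of Socs3 depended on which mice were fitted. Its difference was 2.74 without Control 2 and 1.96 without EC-Foxc-DKO 1, with adjusted p-values of 0.00128 and 0.000393 by edgeR's quasi-likelihood test, and 0.76 without EC-Foxc-DKO 2 and 0.88 without Control 1. It passed with the replicate number as a block (1.68, adjusted p = 0.039) and with no filter on low counts (adjusted p = 0.019). With no filter, 3 members passed in macrophages and monocytes, Socs2 (adjusted p = 0.00667), Socs3 (adjusted p = 0.028) and Il22ra2 (adjusted p = 1.56e-12), the last resting on the few EC-Foxc-DKO 2 cells described above, and Socs3 in T cells did not pass when any mouse was left out (lowest adjusted p = 0.0503).

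The cells behind these values differed between mice. Among macrophages and monocytes, the unnamed subcluster led by Lyve1, Cp and Fcrls, with 8 of 10 markers of resident macrophages, held 2, 29, 17 and 12 cells of Control 1, Control 2, EC-Foxc-DKO 1 and EC-Foxc-DKO 2, and its Socs3 level was 1311, 896 and 300 CPM in the last 3. A shallow unnamed subcluster led by Defa24 and Itln1, both products of Paneth or goblet cells, held 39 EC-Foxc-DKO 2 cells and 5 EC-Foxc-DKO 1 cells and no Control cells, with a Socs2 level of 158 CPM in EC-Foxc-DKO 2. In the monocyte-like subcluster with the most cells, Socs2 was 29.3, 54.7 and 94.5 CPM in Control 1, EC-Foxc-DKO 1 and EC-Foxc-DKO 2, so the order of the mice was the same there. Among T and innate lymphoid cells, a shallow Defa24-led subcluster held 49 of the 85 cells of EC-Foxc-DKO 2, with Socs3 at 23.8 CPM. The CD4 T-like subcluster held 2, 6, 54 and 11 cells, with Socs3 at 129 and 166 CPM in the EC-Foxc-DKO mice. The part of these differences in makeup in the genotype values was not tested.

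**Figure D5:**
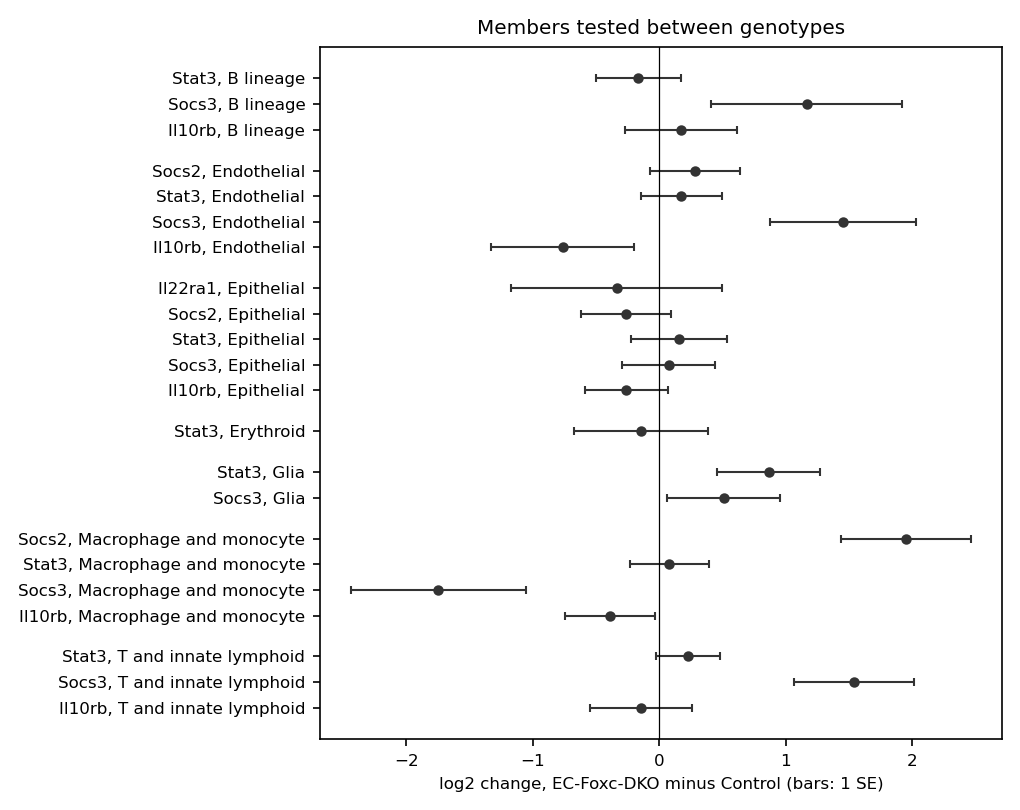
Log2 difference between EC-Foxc-DKO and Control mice with 1 SE on either side for the 22 tests of members, grouped by compartment. The largest positive values are Socs2 in macrophages and monocytes (1.96) and Socs3 in T and innate lymphoid cells (1.54), the lowest is Socs3 in macrophages and monocytes (-1.75), and none passed after adjustment.

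The genes most like each member were taken across 19 cell types as a description, by Pearson's r of log2(CPM + 1). The points share libraries and depth, and cells left unnamed in the first clustering did not enter. For Il22 they were Icos (0.904), Ccl20 (0.870) and Cd28 (0.851), and for Il22ra1 they were Acox2 (0.942), Gm10680 (0.924) and Syt12 (0.913). Il22ra2 was nearest to Pilrb1 (0.972), Mmp8 (0.963) and Clec4n (0.963). The values of Il22 and Il22ra2 rest on few cells. Of the Il22 UMIs, 50 were in the first-round cluster named CD4+ T cells, and 11 in plasma and dividing B cells. These 50 are the UMIs of the type 3 lymphocyte-like subcluster. Of them, 41 lay in 1 cell that had no Cd3e or Cd4 UMI, so the first-round name is not a name for that cell. Of the Il22ra2 UMIs, 72 were in macrophages and monocytes, 65 of them in 1 cell, and 2 in neutrophils. Il10rb was nearest to Card19 (0.878), Gabarap (0.874) and Vamp8 (0.851), and Stat3 to Lats2 (0.867), Tor1aip1 (0.863) and Rab21 (0.863). Socs2 was nearest to Gpaa1 (0.886), Nus1 (0.864) and Hs6st1 (0.863), and Socs3 to Sipa1l2 (0.869), Sat1 (0.869) and Nfkbiz (0.865), the last known as a coregulator of inflammatory genes. The lists had no gene in common.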

How the data were processed

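Per the labels, the authors digested distal jejuna with collagenase D and Dispase II, made 10x Genomics Chromium 3′ v3.1 libraries and counted UMIs with Cell Ranger, version 4.0.0 and build mm10 per the submitters' processing notes. The study's methods name another version, so the rule applied to reads shared by Il22 and Iltifb is uncertain. The deposited values are raw UMI counts per gene and barcode, not normalized, in 1 matrix per mouse. Totals were 72046346, 15557181, 64781444 and 38750638 UMIs for Control 1, Control 2, EC-Foxc-DKO 1 and EC-Foxc-DKO 2. A further table that joins the libraries was used only to choose genes for the mitochondrial share.

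Cells with at most 10% UMIs from 13 mitochondrial genes were kept, scaled to 10000 UMIs and clustered with Scanpy 1.11.5 (15 components, 15 neighbors, Leiden resolution 0.5, then 1.0 within T and myeloid cells), leaving the 7 members and Iltifb out. A cluster was named when at least 3 listed markers were 2-fold higher and in 10% of its cells. It stayed unnamed all the same where its 10 leading genes held more markers of a list of another compartment. In the end 84 cells had no compartment. Extending the second round to unnamed myeloid clusters was chosen after seeing the data. An automatic Scrublet call marked 5, 0, 0 and 8 cells and was not used. The highest scores, 77, 10, 161 and 44 cells, were removed in an alternative, as were the 51 shared barcodes in another.

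UMIs were summed per mouse and compartment (at least 10 cells in a mouse) and tested with edgeR 4.0.16 (filterByExpr, TMM, quasi-likelihood, Benjamini-Hochberg at 0.05) in R 4.3.3, with DESeq2 1.42.0 as an alternative. The test was checked on simulated counts. CPM scale a gene to 1000000 UMIs summed over the cells, and they compare cells and not genes. Levels were given for all 7 members. Of each pathway list, at most 5 called genes per comparison were eligible for naming, those with the lowest adjusted p, and of each member the 3 genes with the highest r. Members and lists were chosen with earlier results of these data known. Nothing in the labels says that same-numbered mice were paired, and genotype p-values measure the spread between 2 mice of a group. Compartment p-values measure the spread over mice and compartments that remains after the mouse block. Intervals are exact at 95% and, like the limit of 3 counts for a count of 0, cover counting error only. Promoters came from RefSeq (GRCm38.p6), which matched 4 of 7 members, so Il22ra2, Il10rb and Socs2 were not searched. Values of 1 gene of the lists are not reported here.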

Additional observations from a re-analysis of the deposited data

Results flagged for a closer look

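The mean Il10rb level differed in direction between compartments, EC-Foxc-DKO minus Control. It was -25.9 CPM in endothelial cells and -14.8 CPM in epithelial cells, where both EC-Foxc-DKO mice were below both Control mice, and 32.7 CPM in glia, where both were above. Groups lay apart in the same direction for 15.6% of all endothelial genes, 12.1% of epithelial genes and 14.1% of glial genes, so such a pattern was common. The difference between compartments was not tested, and the glial values rest on 26 UMIs in 4 mice, too few for the genotype test.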

How the results depend on the processing

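No gene was called between genotypes in any compartment, but counts of calls depended on the fit. With no filter on low counts there were 51 calls in B lineage, 114 in endothelial, 85 in epithelial, 19 in erythroid, 50 in glial, 52 in macrophage and monocyte and 63 in T and innate lymphoid cells. DESeq2 gave 3, 2, 7, 1 and 1 in B lineage, endothelial, epithelial, erythroid and T and innate lymphoid cells. With the replicate number as a block there were 38, 33, 2 and 17 in B lineage, endothelial, epithelial and T and innate lymphoid cells. The labels do not say whether same-numbered mice were paired. Correlations of their replicate 1 minus 2 differences ran from -0.23 (macrophages and monocytes) to 0.22 (B lineage). Middle and top enterocytes were 58.0 and 48.6% of epithelial cells in the replicate 1 mice and 22.8 and 1.32% in the replicate 2 mice. Crossed numbers were fitted for macrophages and monocytes only and gave 0, which says nothing of the other compartments. Removing likely doublets gave 2 in endothelial cells, a mitochondrial share over all features gave 2 in erythroid cells, and removing shared barcodes gave 1 in T and innate lymphoid cells. Leaving out a mouse gave 27 to 84 in B lineage, 57 to 146 in endothelial, 0 to 67 in epithelial, 0 to 51 in erythroid, 0 to 48 in glial, 5 to 25 in macrophage and monocyte and 27 to 79 in T and innate lymphoid cells, where a lone mouse is assumed to vary like the other group. With no filter, members were 1 of the 114 genes called in endothelial cells and 3 of the 52 in macrophages and monocytes. They were 5 between epithelial and T and innate lymphoid cells, a comparison in which 61.0% of genes passed with the filter. Il22 was among these 5, with 41 of its kept UMIs in 1 cell. The share of all genes called with no filter is not given here, so these counts are not read against a background. With the block, 1 of the 4 members tested in endothelial cells, Socs3, was among the 33 genes called of 4109. Between epithelium and macrophages, 1 to 3 members were among the 4624 to 5313 genes called when a mouse was left out. The mean Il22 level in T and innate lymphoid cells was 27.2 CPM with a 20% mitochondrial limit, against 10.6.

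Directions turned for small differences. Il10rb in B lineage cells was -0.083 and Socs3 in epithelium -0.20 with the 20% limit, and Socs3 was -0.51 in bottom enterocytes alone. Il22ra2 was 0.077 between epithelial and T and innate lymphoid cells and 0.091 between endothelial and epithelial cells with doublets removed, and 3.57 for the latter by DESeq2. Leaving out a mouse gave ranges that crossed 0 for Stat3 (-0.29 to 0.017) and Il10rb (-0.36 to 0.50) in B lineage cells, and Socs2 in endothelial cells (-0.17 to 0.51). In epithelium they crossed for Il22ra1 (-1.21 to 1.73), Socs2 (-0.62 to 0.17), Stat3 (-0.21 to 0.71) and Socs3 (-0.33 to 0.40). The same held for Stat3 in erythroid cells (-0.30 to 0.0048), Stat3 in macrophages and monocytes (-0.028 to 0.25) and Il10rb in T and innate lymphoid cells (-0.47 to 0.24). Between compartments it held for Il22ra2 (-3.23 to 0.59) and Socs3 (-0.59 to 0.095) in epithelial minus T and innate lymphoid cells, Socs2 in epithelial minus macrophage cells (-0.71 to 0.29) and Il22ra2 in endothelial minus epithelial cells (-1.30 to 0.39). The cause was not tested. Stat3 between epithelium and macrophages no longer passed with the 20% limit (adjusted p = 0.0564), a mitochondrial share over all features (0.0502) or no filter (0.149). Erythroid cells could not be fitted with the 20% limit, at resolution 1.0 or with doublets removed, since a mouse had under 10 of them.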
